A study of Mus musculus with 16 samples.

Results

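Lipoprotein and cholesterol transport in the brain was followed through 9 genes, Lpl, Pltp, Apoe, Apod, Abca1, Abcg1, Vldlr, Lcat and Ch25h, of 19938 genes measured with Affymetrix Mouse Gene 1.0 ST arrays. Each was read by the probe set whose only gene symbol in the platform annotation was that gene, and each of the 9 had exactly 1. The set was chosen with results of these arrays known, because Pltp read lower after stroke and Lpl read higher in the arrays labelled TNF knockout. These 2 patterns are therefore described below with no test. RNA came from whole brain of male mice of 8 weeks of age. There were 4 groups of 4 arrays: mice labelled TNF knockout at 24 h after permanent middle cerebral artery occlusion (pMCAO, a model of ischaemic stroke), naive mice labelled TNF knockout, C57BL/6 mice at 24 h after pMCAO, and naive C57BL/6 mice. Naive mice had no sham operation, so surgery and occlusion are measured together, and nothing in the labels says that the replicates of a group were separate animals, so p-values may measure technical spread alone.

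The brain makes its own lipoproteins, which are separate from those of blood. Astrocytes and other glia secrete particles built on apolipoprotein E, ABC transporters load them with cholesterol and phospholipid, enzymes and transfer proteins reshape them, and receptors of the low density lipoprotein receptor family take them up into neurons. Excess cholesterol is sensed through oxysterols, which activate the nuclear receptor LXR, and Abca1, Abcg1, Apoe, Lpl and Pltp are textbook targets of that receptor. After ischaemia the lipids of dying cells and myelin have to be cleared by phagocytes through the same machinery.

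Several facts of the series bear on the readings. All readings are deposited on a log2 scale and lay between 1.42 and 14.53, and the median of an array was 6.01 to 6.05. Detection calls are not among the values, so a dim reading has no known place against background. Tnf, the targeted gene, read 6.14 to 6.99 in the 8 arrays labelled TNF knockout, against 5.01 to 5.72 in the 8 C57BL/6 arrays. This goes against the label, and a check by Tnf holds only if its probes lie in the sequence that the knockout removed; the sources used here name neither the allele nor that sequence. The groups are therefore named by their label. The sample names of the C57BL/6 arrays share the prefix KL42. Those labelled TNF knockout carry KL76 (naive arrays 1 to 3 and stroke array 1) or KL82 (naive array 4 and stroke arrays 2 to 4), so genotype and prefix cannot be told apart. The tissue label was borne out by its markers: 8 of 8 neuron, 8 of 8 astrocyte and 7 of 7 oligodendrocyte markers read above the array median in all 16 arrays, and 0 of 10 markers of recruited monocytes, macrophages and neutrophils did. In whole tissue, fewer cells of a type and less RNA per cell cannot be told apart.

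The promoters of the 2 genes that rose after stroke, Ch25h and Apod, and of Pltp, which lay lower, are shown to set their sequences side by side. They run from 250 bases before to 50 bases after the RefSeq gene start (GRCm38.p6), 5′ to 3′ on the strand of the gene, and capitals mark the motif matches described next.
Ch25h, chr19:34475099-34475398, minus strand: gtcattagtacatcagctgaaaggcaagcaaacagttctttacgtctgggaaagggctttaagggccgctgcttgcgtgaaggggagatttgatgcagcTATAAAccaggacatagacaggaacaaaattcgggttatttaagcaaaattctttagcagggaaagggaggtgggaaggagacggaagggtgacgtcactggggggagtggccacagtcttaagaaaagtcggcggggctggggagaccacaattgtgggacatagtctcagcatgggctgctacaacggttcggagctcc
Apod, chr16:31314759-31315058, minus strand: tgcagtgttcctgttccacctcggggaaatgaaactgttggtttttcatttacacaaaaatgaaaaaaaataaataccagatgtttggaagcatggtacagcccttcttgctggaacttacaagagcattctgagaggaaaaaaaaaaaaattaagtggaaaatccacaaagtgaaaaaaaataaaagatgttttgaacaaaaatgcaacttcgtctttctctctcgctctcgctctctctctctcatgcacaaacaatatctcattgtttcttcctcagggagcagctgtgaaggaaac
Pltp, chr2:164857659-164857958, minus strand: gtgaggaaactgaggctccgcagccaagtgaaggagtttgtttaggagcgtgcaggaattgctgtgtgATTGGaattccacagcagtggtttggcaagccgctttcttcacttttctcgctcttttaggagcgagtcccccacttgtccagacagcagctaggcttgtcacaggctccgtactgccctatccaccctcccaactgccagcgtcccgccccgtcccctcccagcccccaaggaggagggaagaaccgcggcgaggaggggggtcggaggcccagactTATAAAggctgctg

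The promoter table used here held 10 promoters for 7 of the 9 genes, all but Lpl and Abcg1, and both strands of each were searched for 7 motifs. The letters of the TATA box, TATAAA, began 151 bases before the start in Ch25h and at base 37 after it in Pltp. They were also found for Apoe and, 29 bases before the start, for Abca1, and 13.6 percent of all 32851 promoters of this length hold them. Whether any match works as a TATA box was not tested. The CCAAT box lay 182 bases before the start in Pltp, on the opposite strand, was also found for Vldlr and Lcat, and occurs in 37.4 percent of promoters. The interferon response core, GAAA repeated after a gap of 2 bases, was found in 1 of the 7 genes, Vldlr, and occurs in 3.44 percent of promoters. The LXR direct repeat, AGGTCA repeated after a gap of 4 bases (0.0152 percent), its single hexamer AGGTCA (16.3 percent), which lies within the repeat, the kappaB letters, GGG and TTTCC with 2 bases between them (1.63 percent), and the sterol response core TCACNCCAC (1.24 percent) had 0 matches in these 10 windows. Only these exact letters were searched, so sites that differ from them by a base were not counted, and 0 matches does not show that a site is absent. The GC content was 51.0 percent for Ch25h, 37.3 percent for Apod and 59.0 percent for Pltp.

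Stroke against naive mice was compared first, to ask which of these genes change by 24 h after the occlusion. Ch25h and Apod rose, Pltp lay lower in both genotypes, and Abca1, Abcg1, Vldlr, Lcat, Apoe and Lpl did not pass the test. Averaged over the genotypes, 2 of the 8 genes other than Pltp passed the limma threshold (adjusted p under 0.05), both upwards, beside 2.80 percent of all genes tested (1.78 percent upwards). In the arrays labelled TNF knockout 1 of 8 passed, Ch25h, beside 0.642 percent of all genes (0.537 percent upwards). Among C57BL/6 mice 2 of 8 passed, Ch25h and Apod, beside 1.68 percent (1.34 percent upwards). The median change of these 8 genes was 0.01 in the average over genotypes, and that of all genes was 0.00.

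**Figure D1:**
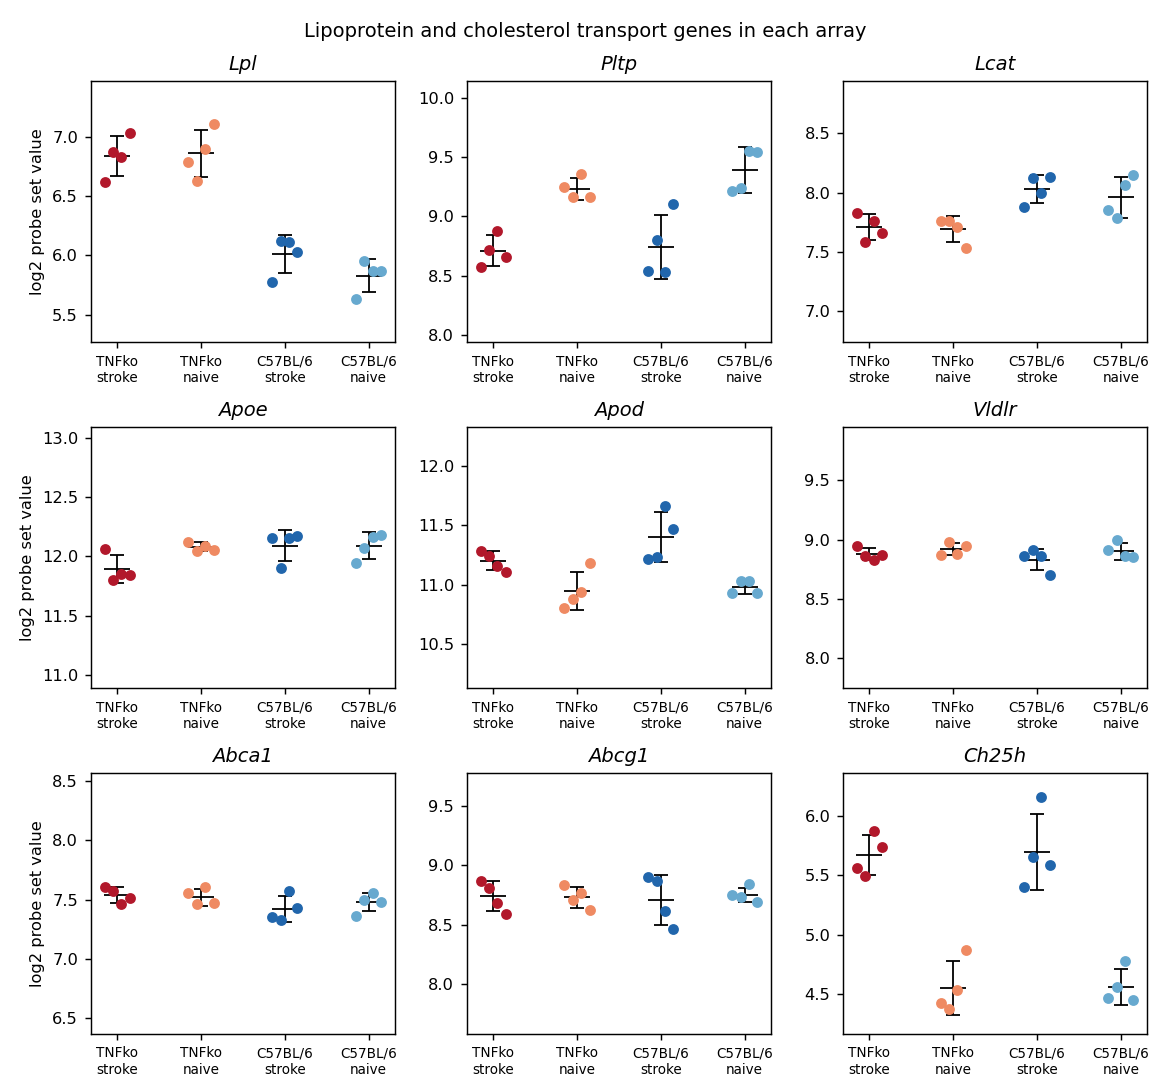
Log2 probe set value (vertical axis, every panel 2.2 units high) of the 9 genes in each array, with TNF knockout label and stroke, TNF knockout label and naive, C57BL/6 and stroke, and C57BL/6 and naive from left to right. Points are arrays, and bars give the mean and SD of 4. Ch25h is high in both stroke groups, Pltp is low in both, and Lpl is high in both groups labelled TNF knockout.

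Ch25h encodes cholesterol 25-hydroxylase, which makes the oxysterol 25-hydroxycholesterol and is induced by interferon in macrophages. In the arrays labelled TNF knockout it read 5.56, 5.49, 5.87 and 5.74 after stroke, against 4.42, 4.37, 4.53 and 4.87 in naive mice. The C57BL/6 arrays read 5.40, 5.65, 6.16 and 5.59 after stroke, against 4.47, 4.56, 4.78 and 4.45 in naive mice. Every stroke array was above every naive array, of either genotype, which was so of 0.562 percent of all genes in either direction. Ch25h rose 2.18-fold on average over the genotypes (1.13 ± 0.10 on the log2 scale, limma SE, adjusted p = 8.71e-07). The change was 1.12 ± 0.14 under the TNF knockout label (adjusted p = 0.000174) and 1.14 ± 0.14 in C57BL/6 mice (adjusted p = 0.000146). The difference between these changes was -0.02 (95% interval -0.43 to 0.40), so a difference within that interval was not resolved. Within KL76 the change was 1.12 and within KL82 it was 0.83, with 1 array on a side in each. Only 1 of the 16 readings of Ch25h lay above its array median.

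Some myeloid markers also rose after stroke. Of 10 markers of recruited monocytes, macrophages and neutrophils, 2 rose over both genotypes and 0 fell, beside 1.78 percent of all genes called higher. They were the lysozyme gene Lyz2 (0.96 ± 0.12, limma adjusted p = 9.46e-05) and the neutrophil gene Retnlg (0.35 ± 0.07, adjusted p = 0.0111). S100a8 (0.37, adjusted p = 0.0639), Ccr2 (0.28, 0.0854), Plac8 (0.27, 0.148) and Mrc1 (0.19, 0.291) lay above 0 and did not pass. Ly6g (0.02, 0.937), Mmp8 (0.01, 0.976), S100a9 (0.07, 0.689) and Ms4a7 (-0.07, 0.71) lay near 0. The mean log2 level of the 10 markers ran from 4.05 to 4.25 after stroke, against 3.82 to 3.87 in naive mice, in the arrays labelled TNF knockout. It ran from 4.0 to 4.35 after stroke, against 3.91 to 4.01 in naive mice, in C57BL/6 mice. None of these markers is listed at 0, since the lowest reading among them was 2.73. In the same contrast 1 of 7 microglia markers rose, Fcrls (0.68 ± 0.12, adjusted p = 0.00209), and 1 fell, Siglech (-0.47 ± 0.08, adjusted p = 0.00168). The astrocyte marker Gfap rose (0.77 ± 0.10, adjusted p = 0.000139), 1 of 8 in its list, as did the endothelial glucose transporter gene Slc2a1 (0.28 ± 0.07, adjusted p = 0.0437), 1 of 7. The neuron marker Tubb3 fell (-0.27 ± 0.06, limma adjusted p = 0.0157), 1 of 8. In this contrast 1.03 percent of all genes were called lower. The part of these markers in the changes of Ch25h, Apod and Pltp was not tested.

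On chromosome 19 Ch25h sits beside the lysosomal lipase gene Lipa and the Ifit cluster of interferon-induced antiviral genes. Of the 10 nearest tested genes on each side, 4 passed in the average over genotypes, all of them Ifit genes and all higher after stroke: Ifit2 (0.46), Ifit3 (0.93), Ifit3b (0.61) and Ifit1 (1.35). In that contrast 1.78 percent of all genes were called higher. Ifit3 and Ifit3b are near-identical copies whose probe sets may share signal. The gene between Ch25h and Ifit2, Lipa, differed by 0.23 (adjusted p = 0.18), and Fas on the other side by 0.27 (adjusted p = 0.12). These neighbours were chosen by position after results were known.

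**Figure D2:**
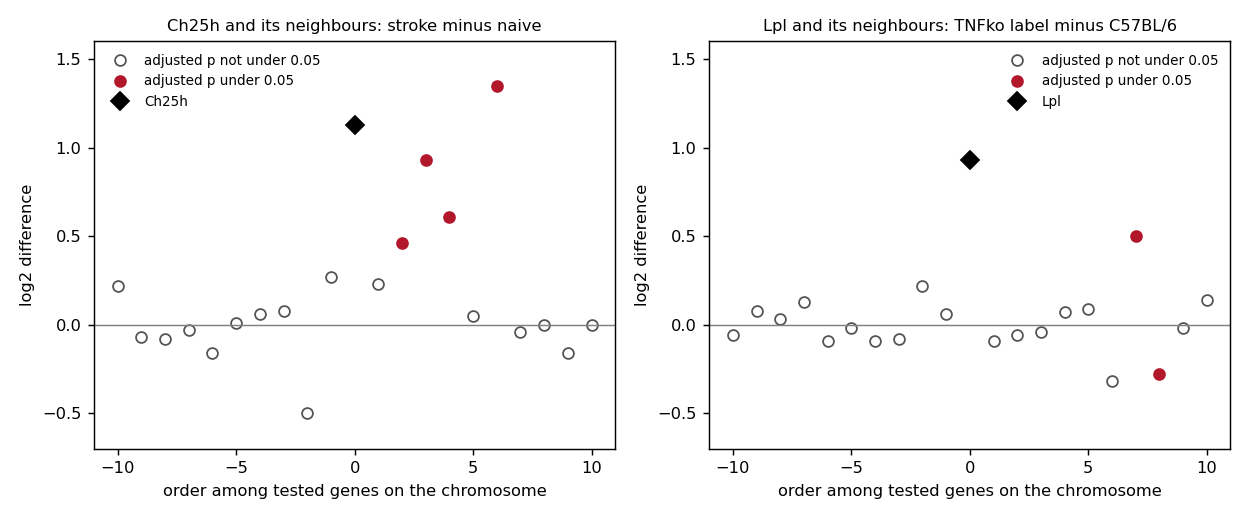
Log2 differences (vertical axes) of the 10 tested genes on each side of Ch25h (left, stroke minus naive averaged over genotypes) and Lpl (right, TNF knockout label minus C57BL/6 averaged over surgery), in their order on the chromosome (horizontal axes). Diamonds are Ch25h at 1.13 and Lpl at 0.93, and filled circles are neighbours with adjusted p under 0.05, 4 beside Ch25h and 2 beside Lpl. Of all genes, 2.80 percent passed in the left contrast and 2.62 percent in the right.

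Apod encodes apolipoprotein D, a lipocalin of oligodendrocytes, astrocytes and vascular cells that binds arachidonic acid and other small lipids. In C57BL/6 mice it read 11.22, 11.23, 11.66 and 11.47 after stroke, against 10.93, 11.03, 11.03 and 10.93 in naive mice. In the arrays labelled TNF knockout it read 11.28, 11.24, 11.16 and 11.11 after stroke, against 10.80, 10.88, 10.94 and 11.18 in naive mice. The groups did not overlap in C57BL/6 mice, as in 8.26 percent of all genes, and overlapped in the arrays labelled TNF knockout through naive array 4. Averaged over the genotypes Apod rose 1.26-fold (0.33 ± 0.07, limma adjusted p = 0.0118). It rose by 0.42 ± 0.10 in C57BL/6 mice (adjusted p = 0.0398). Under the TNF knockout label the change was 0.25 ± 0.10 and did not pass (adjusted p = 0.463). The difference of these changes was -0.17 ± 0.14 (adjusted p = 0.79). The C57BL/6 call was lost in 9 of 16 fits, each lacking a single array: C57BL/6 stroke array 3 or 4, any of the 4 naive C57BL/6 arrays, stroke array 3 labelled TNF knockout, or naive array 2 or 3 with that label (Apod adjusted p from 0.0502 to 0.138). Within KL76 the change was 0.41 and within KL82 it was -0.01, with 1 array on a side in each, and a fit that holds the prefix gave an average over genotypes of 0.31 (adjusted p = 0.0463).

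Pltp encodes phospholipid transfer protein, which moves phospholipid between lipoprotein particles and is made by vascular, meningeal and glial cells. In the arrays labelled TNF knockout it read 8.57, 8.72, 8.88 and 8.66 after stroke, against 9.25, 9.16, 9.36 and 9.16 in naive mice. In C57BL/6 mice it read 8.54, 8.80, 8.53 and 9.10 after stroke, against 9.21, 9.24, 9.55 and 9.54 in naive mice. All 8 stroke arrays lay below all 8 naive arrays, with C57BL/6 stroke array 4 the nearest to them. The 2 conditions were apart in this way, in either direction, for 0.562 percent of all genes. The level after stroke was 69.5 percent of the naive level in the arrays labelled TNF knockout and 64.1 percent in C57BL/6 mice. On the log2 scale these are -0.53 ± 0.12 and -0.64 ± 0.12, and only 2 genes of 19938 had a lower value in the average over genotypes. Within KL76 the change was -0.69 and within KL82 it was -0.41, with 1 array on a side in each. As Pltp chose the set, these are descriptions.

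Measures of Pltp that did not choose it could be tested. The difference between its stroke changes was 0.12 ± 0.17 (adjusted p = 0.89, 95% interval -0.23 to 0.47). The TNF knockout label against C57BL/6 gave -0.04 ± 0.12 after stroke (adjusted p = 0.94) and -0.15 ± 0.12 in naive mice (adjusted p = 0.53). Among 10 markers of pericytes, vascular fibroblasts and meninges, 2 fell after stroke in the average over genotypes and 0 rose, beside 1.03 percent of all genes called lower. They were the pericyte gene Rgs5 (-0.37 ± 0.08, limma adjusted p = 0.0166) and the growth factor gene Igf2 (-0.35 ± 0.08, adjusted p = 0.0211). Other genes of that list had values above 0 that did not pass, the matrix proteoglycan genes Dcn (0.44 ± 0.13, adjusted p = 0.0672) and Lum (0.20 ± 0.10, adjusted p = 0.304), and the list's median was -0.05. The mean log2 level of this list ran from 6.65 to 6.90 in the 8 stroke arrays, against 6.71 to 6.90 in the 8 naive arrays, and its lowest reading was 4.20. Its part in the lower Pltp was not tested. The 3 genes whose deviations over the 16 arrays were closest to those of Pltp were Cadps2, Slc30a3 and Tst (root mean square difference 0.17 each, against a median of 0.36 over all genes). Cadps2 primes dense core vesicles, Slc30a3 fills synaptic vesicles with zinc, and Tst is a mitochondrial sulfurtransferase.

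**Figure D3:**
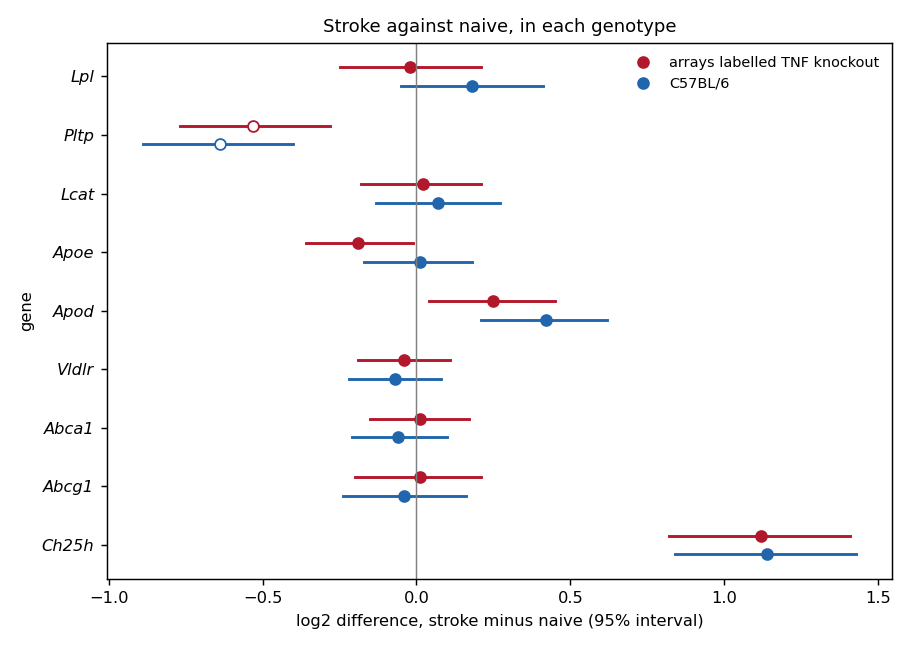
Log2 difference, stroke minus naive, with its 95% interval (horizontal axis) for the 9 genes, in the arrays labelled TNF knockout (red) and in C57BL/6 mice (blue). Open circles mark Pltp, which chose the set. Ch25h lies near 1.1 in both genotypes, and the intervals of Abca1, Abcg1, Vldlr, Lcat and Lpl include 0 in both.

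The transporters, the receptor and Lcat did not pass after stroke. Abca1, which exports cholesterol to lipid-poor apolipoproteins, read 7.33 to 7.61 in the 16 arrays, and its stroke change averaged -0.02 (95% interval -0.13 to 0.09). Abcg1, which loads cholesterol onto formed particles, read 8.46 to 8.90 and its stroke change averaged -0.02 (-0.16 to 0.12). Its lowest and its highest reading were both in the C57BL/6 stroke group, whose SD of 0.21 compares with 0.06 in naive C57BL/6 mice. Vldlr, the very low density lipoprotein receptor, which also binds reelin, read 8.70 to 9.0, with an average change of -0.06 (-0.16 to 0.05). Lcat, which esterifies cholesterol on particles, averaged 0.04 (-0.09 to 0.18). None of these 4 passed the limma threshold (adjusted p from 0.63 to 0.93), and their intervals reach 0.18 at most.

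Apoe, the main apolipoprotein of brain, did not pass in either genotype. In the arrays labelled TNF knockout it read 12.06, 11.80, 11.85 and 11.84 after stroke, against 12.12, 12.04, 12.09 and 12.05 in naive mice (-0.19 ± 0.08, limma adjusted p = 0.551). Stroke arrays 2 to 4 lay below all 4 naive arrays, and array 1, the only stroke array with prefix KL76, lay among them. In C57BL/6 mice it read 12.15, 11.90, 12.15 and 12.17 after stroke, against 11.94, 12.07, 12.16 and 12.18 in naive mice (0.01 ± 0.08, adjusted p = 0.984). The difference of the changes was -0.19 (95% interval -0.44 to 0.05, adjusted p = 0.72). Lpl differed after stroke by -0.02 ± 0.11 under the TNF knockout label (adjusted p = 0.99) and by 0.18 ± 0.11 in C57BL/6 mice (adjusted p = 0.43).

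For the difference of the stroke changes between genotypes 0 of 9 genes passed in limma, 0 at an unadjusted p under 0.05, beside 0.0 percent of all genes called and 1480 of them at an unadjusted p under 0.05. The SE of this difference was 0.10 to 0.20 for the 9 genes.

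The TNF knockout label was compared with C57BL/6 to ask which of these genes differ between the genotypes. The level of Lpl under the label was on average 1.90 times that of C57BL/6, Lcat was lower, and the other 7 genes did not pass. Of the 8 genes other than Lpl, 1 passed in the average over surgery, Lcat, beside 2.62 percent of all genes. After stroke 0 of 8 passed in limma (2 at an unadjusted p under 0.05, Apoe and Lcat), beside 0.436 percent. In naive mice 0 of 8 passed (1 at an unadjusted p under 0.05, Lcat), beside 0.386 percent.

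Lpl encodes lipoprotein lipase, which hydrolyses the triglycerides of lipoproteins and in brain is made by microglia and by some neurons. After stroke it read 6.62, 6.87, 6.83 and 7.03 in the arrays labelled TNF knockout, against 5.78, 6.12, 6.11 and 6.03 in C57BL/6 mice. In naive mice it read 6.79, 6.63, 6.90 and 7.11 in the arrays labelled TNF knockout, against 5.63, 5.95, 5.87 and 5.87 in C57BL/6 mice. All 8 arrays with the label lay above all 8 without it: the lowest of the first read 6.62 and the highest of the second 6.12. Such a separation, in either direction, held for 0.502 percent of all genes. The level under the label was 1.77 times that of C57BL/6 after stroke and 2.04 times in naive mice, differences of 0.83 ± 0.11 and 1.03 ± 0.11 on the log2 scale. Only 4 of 19938 genes had a higher value in the average over surgery. As Lpl chose the set, no test is given. The arrays with prefix KL76 read 6.62 after stroke and 6.77 in naive mice, and those with KL82 read 6.91 after stroke and 7.11 in naive mice, so both prefixes lay above the C57BL/6 means of 6.01 and 5.83. The KL76 stroke value and the KL82 naive value are each 1 array, and the others are means.

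On chromosome 8, of the 10 tested genes nearest to Lpl on each side, 2 passed between genotypes in the average over surgery, beside 2.62 percent of all genes. They were the zinc finger genes Zfp868 (0.50, limma adjusted p = 0.0058) and Zfp869 (-0.28, adjusted p = 0.0319), which differed in opposite directions. The genes next to Lpl, Ints10 (0.06) and Slc18a1 (-0.09), did not pass (adjusted p of 0.68 and 0.67). The 3 genes whose deviations were closest to those of Lpl over the 16 arrays were Glo1, which detoxifies methylglyoxal (root mean square difference 0.16), the zinc finger gene Zfp983 (0.18) and Abhd1 (0.22), against a median of 0.52. Glo1 is a near neighbour of Abcg1 on chromosome 17 and was higher under the label by 0.98, while Abcg1 itself differed by 0.00 (95% interval -0.14 to 0.15). No test is given for Glo1, since it was picked for its likeness to Lpl. Btbd9, the tested gene next to Glo1, was also higher (0.50, adjusted p = 0.00358). Tnf, the targeted gene, lies on the same chromosome, and its part in these differences was not tested.

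**Figure D4:**
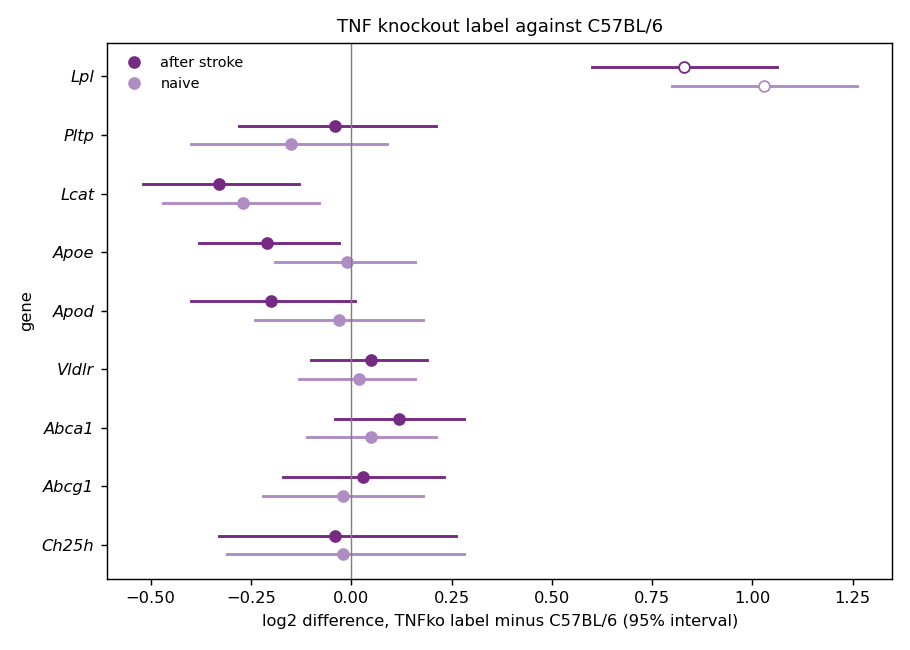
Log2 difference, TNF knockout label minus C57BL/6, with its 95% interval (horizontal axis) for the 9 genes, after stroke (dark) and in naive mice (light). Open circles mark Lpl, which chose the set. The intervals of Lcat lie below 0 in both conditions, and those of Abca1, Abcg1, Vldlr, Pltp and Ch25h include 0 in both.

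Lcat was lower in the arrays labelled TNF knockout. After stroke it read 7.83, 7.58, 7.76 and 7.66 in them, against 7.88, 8.12, 8.00 and 8.13 in C57BL/6 mice. In naive mice it read 7.76, 7.76, 7.71 and 7.53, against 7.85, 7.79, 8.06 and 8.15 in C57BL/6 mice. The groups did not overlap in either condition, as in 5.80 percent of all genes after stroke and 8.65 percent in naive mice, although the nearest arrays were 7.83 and 7.88 after stroke and 7.76 and 7.79 in naive mice. Lcat fell by 0.30 ± 0.07 in the average over surgery (limma adjusted p = 0.0212), to 81.3 percent of C57BL/6. The call was lost without naive array 4 labelled TNF knockout (-0.27, adjusted p = 0.0503) and kept in the other 15 such fits. Taken apart, the differences were -0.33 ± 0.09 after stroke (adjusted p = 0.157) and -0.27 ± 0.09 in naive mice (adjusted p = 0.163).

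Some markers of oligodendrocytes and endothelium were also lower under the label. Of 7 oligodendrocyte markers 3 fell in the average over surgery and 0 rose, beside 1.26 percent of all genes called lower: Cldn11 (-0.44 ± 0.08, adjusted p = 0.00421), Cnp (-0.37 ± 0.05, adjusted p = 0.000805) and Mag (-0.27 ± 0.07, adjusted p = 0.0424). Their mean log2 level ran from 9.16 to 9.39 in the arrays labelled TNF knockout after stroke, against 9.50 to 9.82 in C57BL/6 mice. In naive mice it ran from 9.36 to 9.49 in the arrays labelled TNF knockout, against 9.45 to 9.75 in C57BL/6 mice. The lowest reading among these markers was 6.62. Of 7 endothelial markers 1 fell, the tight junction gene Cldn5 (-0.33 ± 0.08 in the average, adjusted p = 0.0342, and -0.54 ± 0.11 after stroke, adjusted p = 0.0396). The mean log2 level of that list ran from 7.39 to 7.43 in the arrays labelled TNF knockout after stroke, against 7.53 to 7.77 in C57BL/6 mice. It ran from 7.38 to 7.54 in naive mice with the label, against 7.37 to 7.61 in naive C57BL/6 mice. The part of both lists in the lower Lcat was not tested.

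The rest of the machinery was followed in 6 lists of 110 tested genes, chosen with earlier results of these arrays known. After stroke, in the average over genotypes, 4 of the 110 rose and 2 fell, beside 1.78 percent of all genes higher and 1.03 percent lower. The genes that rose were Msr1, Saa3, Tspo and Insig2, and those that fell were the receptor genes Lrp4 and Sorl1. Between genotypes, in the average over surgery, 3 of the 110 were higher and 4 lower, beside 1.35 percent and 1.26 percent.

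Among receptors, 1 of 17 rose and 2 fell after stroke in the average over genotypes, beside 1.78 percent of all genes higher and 1.03 percent lower. Msr1, a scavenger receptor of macrophages for modified lipoproteins, averaged 4.25 ± 0.13 after stroke in the arrays labelled TNF knockout, against 3.38 ± 0.14 in naive mice. It averaged 4.58 ± 0.38 after stroke in C57BL/6 mice, against 3.39 ± 0.12 in naive mice (SD, n = 4 each). The average change was 1.03 ± 0.10 (limma adjusted p = 1.68e-06) and passed in each of the 16 fits that lacked an array. Lrp4 (-0.26 ± 0.07, adjusted p = 0.0461), a receptor of the same family as Vldlr, passed in 2 of those fits. Sorl1 (-0.22 ± 0.06, adjusted p = 0.0451), a sorting receptor that binds Apoe, passed in 4. With the prefix held in the fit neither passed (adjusted p of 0.167 for Lrp4 and 0.157 for Sorl1). Cd36, a receptor for fatty acids and oxidised lipoproteins, averaged 3.60 ± 0.17 after stroke in the arrays labelled TNF knockout, against 4.13 ± 0.22 in C57BL/6 mice (-0.53 ± 0.10, adjusted p = 0.0192, 11 of 16 fits). Its stroke change was 0.43 ± 0.10 in C57BL/6 mice (adjusted p = 0.0417, 5 of 16 fits), and the difference of its stroke changes did not pass (-0.47 ± 0.15, adjusted p = 0.534). Reln, which encodes the reelin ligand of Vldlr, was higher under the label in the average over surgery (0.27 ± 0.07, adjusted p = 0.0431, 3 of 16 fits).

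Among apolipoproteins, 1 of 18 rose after stroke in the average over genotypes, beside 1.78 percent of all genes. Saa3, an acute phase apolipoprotein, averaged 4.15 ± 0.16 after stroke in the arrays labelled TNF knockout, against 3.52 ± 0.14 in naive mice, and 4.10 ± 0.32 after stroke in C57BL/6 mice, against 3.83 ± 0.26 in naive mice (SD, n = 4 each). Its average change of 0.45 ± 0.10 passed in limma (adjusted p = 0.0162) and in 16 of 16 fits lacking an array. In a fit that holds the prefix Saa3 did not pass (0.44, adjusted p = 0.0536). The median of the 18 genes between genotypes was -0.12 in the average over surgery, with 0 past the threshold (limma), beside -0.01 for all genes, and 13 of the 18 read at or below the array median in all 16 arrays.

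Among lipases and remodelling genes, 4 of 15 passed between genotypes in the average over surgery, 1 upwards and 3 downwards. Of all genes, 1.35 percent were called higher and 1.26 percent lower in that contrast. Pon2, a membrane antioxidant lactonase, averaged 7.79 ± 0.10 after stroke in the arrays labelled TNF knockout, against 8.46 ± 0.17 in C57BL/6 mice. In naive mice it averaged 8.00 ± 0.16 in the arrays labelled TNF knockout, against 8.26 ± 0.14 in C57BL/6 mice. It was lower in the average (-0.46 ± 0.07, adjusted p = 0.00117) and in 16 of 16 fits lacking an array. Pla2g7, the lipoprotein-associated phospholipase, was lower (-0.24 ± 0.05, adjusted p = 0.0201, 15 of 16 fits). Gpihbp1, which carries the lipase encoded by Lpl to the capillary wall, was lower (-0.25 ± 0.06, adjusted p = 0.0342, 7 of 16 fits). Mttp, which loads lipid onto apolipoprotein B, was higher (0.36 ± 0.09, adjusted p = 0.0495, 3 of 16 fits). After stroke in the average over genotypes 0 of the 15 passed, and Mgll, which degrades monoacylglycerols, fell under the TNF knockout label (-0.40 ± 0.09, adjusted p = 0.0324, 10 of 16 fits; 0.272 with the prefix held and 0.0502 with a replicate block).

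Genes of sterol efflux, sensing and synthesis gave few calls. In the average over genotypes, 1.78 percent of all genes were called higher after stroke. Of 23 genes of efflux, LXR and intracellular transport, 1 rose after stroke in the average over genotypes, Tspo (0.34 ± 0.07, limma adjusted p = 0.00835, 16 of 16 fits), a mitochondrial protein that binds cholesterol and is read as a sign of activated glia. Its change was 0.53 ± 0.10 under the TNF knockout label (adjusted p = 0.00944) and 0.14 in C57BL/6 mice (adjusted p = 0.464), and the difference of these changes did not pass (0.39 ± 0.14, adjusted p = 0.571). In the same list Abca3 was higher under the TNF knockout label (0.19 ± 0.05, adjusted p = 0.0463, 2 of 16 fits). Of 21 genes of cholesterol synthesis and its SREBP2 control, 1 rose after stroke, Insig2 (0.24 ± 0.06, adjusted p = 0.0251, 10 of 16 fits; 0.0944 with the prefix held), which holds the SREBP complex in the endoplasmic reticulum. Its change was 0.10 under the TNF knockout label (adjusted p = 0.849) and 0.39 ± 0.08 in C57BL/6 mice (adjusted p = 0.019), and the difference of these changes did not pass (-0.29 ± 0.12, adjusted p = 0.609). All 21 genes read above the array median in all 16 arrays, and their median change after stroke was 0.04. Of 16 genes of oxysterol metabolism and sensing, 0 passed in the average over genotypes in limma. Cyp7b1, which breaks down the product of Ch25h, rose in C57BL/6 mice (0.31 ± 0.08, adjusted p = 0.045, 4 of 16 fits), with a difference of its stroke changes of -0.28 ± 0.11 (adjusted p = 0.583).

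**Figure D5:**
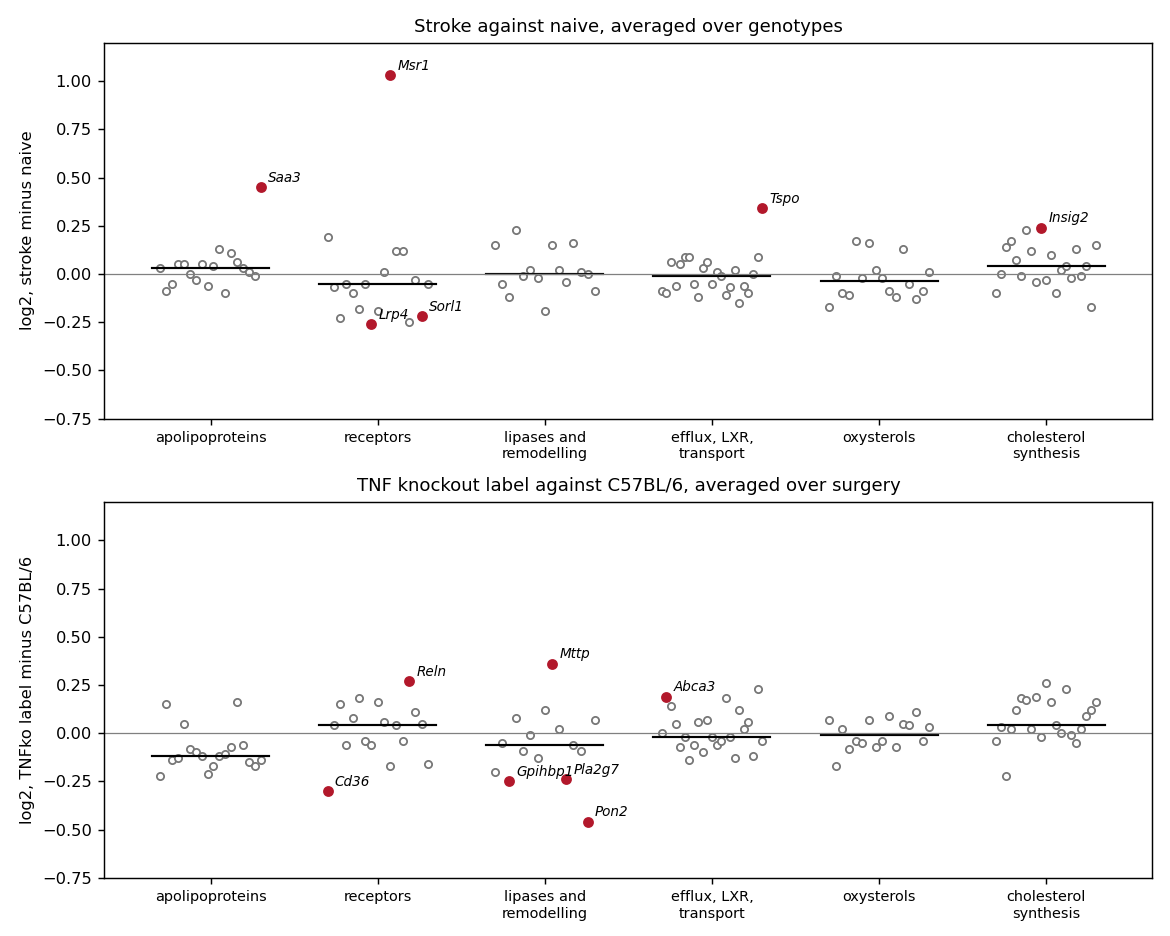
Log2 differences (vertical axes) of the 110 genes in 6 lists (horizontal axis), stroke minus naive averaged over genotypes (top) and TNF knockout label minus C57BL/6 averaged over surgery (bottom). Filled, named circles have adjusted p under 0.05, open circles do not, and bars are list medians. Msr1 at 1.03 stands above the other genes in the top panel, and Pon2 at -0.46 is the lowest in the bottom panel.

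The genes most like Ch25h over the 16 arrays were Ifitm3, an interferon-induced antiviral membrane protein (root mean square difference 0.19), the myeloid gene Ms4a6c (0.20) and the protease inhibitor gene A2m (0.20), against a median of 0.62 over all genes. Around its own mean, Ch25h stood at 0.55 after stroke and -0.57 in naive mice in the arrays labelled TNF knockout, and at 0.58 and -0.55 in C57BL/6 mice. Ifitm3 stood at 0.68 and -0.75 in the arrays labelled TNF knockout and at 0.62 and -0.55 in C57BL/6 mice, in the same order of conditions.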

How the data were processed

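Total RNA of whole brain was isolated with Trizol and labelled with the GeneChip WT Terminal Labeling Kit, per the labels' protocols. The authors deposited 1 log2 value per probe set and array, already normalised. GCOS, GCRMA, Partek and RMA are named, without version or role, in the submitters' processing notes. Of 28944 probe sets, 21789 had 1 symbol in GEO's platform annotation. Of several for a gene the one with the highest mean was used, which gave 19938 genes, with no filter on dim ones. No 2 arrays were identical, and arrays of a group correlated at 0.991 to 0.996.

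With limma 3.58.1 (lmFit, eBayes; R 4.3.3) the 16 arrays were modelled by 4 group means (12 residual and 7.52 prior degrees of freedom), two-sided, with p-values adjusted by Benjamini and Hochberg over all genes of each of 7 contrasts, at 0.05. The scripts were tested on simulated data. The 9 genes, the lists and the tests were chosen with earlier results of these data known. Named are the 9 genes, up to 4 list members past the threshold per contrast by smallest p, and the 3 genes closest to a member whose group means span at least 0.5. Members were matched by symbol. Of 123 other list entries 110 matched a tested gene; the others were not analysed here. The main fit did not pair arrays by replicate number. Correlations between deviations of same-numbered arrays of 2 groups ran from -0.075 to 0.34, and not all exceeded 0.1. For stroke and naive arrays labelled TNF knockout they were 0.34, 0.036, 0.14 and 0.219. These values do not settle whether the numbers link arrays. Alternatives were quantile normalization, median centring, trended and robust variance, array weights, averaged probe sets, a filter on dim genes, the compared groups alone, a replicate block, the prefix as a term, and leaving out each array. Precision is limited by 4 arrays per group. Promoter sequences and gene order came from RefSeq (GRCm38.p6). Tables were prepared in pandas 2.3.3 and numpy 2.4.6 under Python 3.11.15, and figures in matplotlib 3.10.9.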

Additional observations from a re-analysis of the deposited data

Results flagged for a closer look

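Among the 9 genes and Tnf, 40 sets of 4 readings were checked for an array far from the other 3, of which chance marks about 1 in 20. In C57BL/6 stroke array 2 Apoe read 11.90, against 12.15 to 12.17 in the other 3, a gap of 0.926 of the group's range. In the same array Tnf read 5.28, against 5.64 to 5.68 in the other 3, a gap of 0.900 of the range.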

How the results depend on the processing

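Each of the 63 values (9 genes in 7 contrasts) was recomputed under 26 other settings, 16 of them without 1 array, as far as each applied. Of 1577 recomputed values 1564 kept their side of the threshold (or, for Pltp after stroke and Lpl between genotypes, moved by less than 1 SD), 13 lost a call, 0 gained one and 0 calls changed direction. In 75 values that never passed, the sign changed. The lost calls were 12 of Apod in C57BL/6 mice and 1 of Lcat. In C57BL/6 mice the count of genes past the threshold after stroke was 1 in place of 2 with quantile normalization (Apod at 0.37, adjusted p = 0.0581), with median centring (0.40, adjusted p = 0.0534), with the compared groups alone (adjusted p = 0.111), and without the dimmest genes. That last filter, on a mean under 5.30, removes Ch25h itself, so the count was also 0 in place of 1 in the arrays labelled TNF knockout and 1 in place of 2 in the average over genotypes. Leaving out each array in turn gave counts of 1 to 2 in C57BL/6 mice, and of 0 to 1 for the genotypes averaged over surgery. With the replicate number as a block the change of Ch25h was 1.13 (adjusted p = 6.27e-07) and the block changed no call of the 9 genes. Of the list genes, 3 calls were lost under the block: Mgll (-0.40, adjusted p = 0.0502) and Saa3 (0.63, adjusted p = 0.0695) for stroke under the TNF knockout label, and Pla2g7 between genotypes after stroke (-0.35, adjusted p = 0.0536). The numbers of all genes called moved more. After stroke in the arrays labelled TNF knockout, 128 genes were called, against 72 with the prefix as a term, 212 with array weights and 69 to 145 with 1 array left out. In C57BL/6 mice 334 were called, against 98 with the compared groups alone, 511 with trended variance, 536 without the dimmest genes, 559 with the replicate block and 107 to 639 with 1 array left out. In the average over genotypes 559 were called, against 332 with the prefix and 369 to 629 with 1 array left out. The count was 731 without the dimmest genes, 760 with trended variance, 765 with the replicate block and 768 with array weights. Between genotypes after stroke 87 were called, against 46 with the compared groups alone, 165 with trended variance, 164 without the dimmest genes and 47 to 120 with 1 array left out. In naive mice 77 were called, against 51, 117, 185 and 23 to 138 under the same settings, and 141 with the replicate block. In the average over surgery 522 were called, against 252 to 620 with 1 array left out. Other settings gave 413 with quantile normalization, 682 with trended variance, 747 with the replicate block and 760 without the dimmest genes. For the difference of the stroke changes 0 were called, and at most 1 with another setting and 3 with 1 array left out. The causes were not tested. Without detection p-values, dim genes such as Ch25h, Msr1, Saa3 and Cd36 have no known place against background.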
